A study of Sus scrofa with 22 samples.

Results

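Piglets with the lower animal numbers were compared with piglets with the higher animal numbers in a cerebellar RNA sequencing study of cholestasis, the block of bile flow. The early group holds animals 400 to 410 and the late group animals 411 to 421, 11 libraries each, so that all 22 libraries of the series enter the comparison and the split uses no measured value. Each library is the cerebellum of 1 pig, the part of the brain that coordinates balance and movement. The labels give 2 treatments, bile duct ligation (BDL) and a sham operation (SHAM). Surgery was at the age of 8 days with 3 weeks of observation after it, and no other agent, strain or allele is named. The early group holds 6 BDL animals (4 female, 2 male) and 5 SHAM animals (1 female, 4 male). The late group holds 5 BDL animals (3 female, 2 male) and 6 SHAM animals (4 female, 2 male). The sources used here do not say what the number orders, nor the litter, the date or the time of day of surgery and tissue collection, so these cannot be told apart from one another. The question was which gene programs follow the animal number when treatment and sex are in the model.

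The circadian clock is a loop in which the activators BMAL1 and CLOCK switch on their own repressors, among them the PER, CRY and REV-ERB proteins, so that activator and repressor transcripts peak at opposite times of day in most tissues. Stress programs read out hormones, temperature, oxygen and misfolded proteins, and several respond within minutes to hours. A dissected cerebellum also carries its coverings and neighbours: collagen-rich meninges, blood vessels, choroid plexus and brainstem. In the young cerebellum, granule neurons are still produced at the surface under the meninges and mature as they move inward.

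The libraries held 14811464 to 20046909 counts on genes, and 29.9% to 34.6% of all counted read pairs stood in lines of no gene. Of 9 library measures, none had an unadjusted p under 0.05 for early against late (two-sided permutation tests). The smallest p was 0.104, adjusted 0.939, for the share of alignments of low quality. Gene counts averaged 1.73e+07 ± 1.47e+06 (SD, n = 11) in early and 1.76e+07 ± 1.47e+06 in late animals. Body weight, labelled without a unit, averaged 2035 ± 297 in early and 2044 ± 289 in late animals. Of the defining markers of the tissue, NEUROD1 and CALB1 had similar medians in both groups, and GABRA6 had a higher one in late libraries. NEUROD1, a granule neuron factor, had a median of 773 CPM (gene counts scaled to a common library size) in early and 755 in late libraries. GABRA6, another granule neuron gene, had medians of 341 and 380 CPM, and 8 of 11 early libraries were below every late one. CALB1, the Purkinje cell calcium buffer, had medians of 396 and 400 CPM. TTR, the main choroid plexus transcript, ran from 1.67 to 1395 CPM in early and from 9.49 to 863 CPM in late libraries, and HBB, a red cell gene, reached at most 11.13 CPM.

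Late animals had less of the collagen transcript COL1A1. Most other collagen, basement membrane and cell division transcripts and most clock repressors also had lower values in late animals, and the clock activator BMAL1 had higher ones, but none of these passed correction. Of 14994 genes tested, 1 was called (edgeR quasi-likelihood test, adjusted p under 0.05; 0.00667% of the genes), and it was lower in late animals. At an unadjusted p under 0.05 there were 1205 genes, of which 665 were lower (4.44%) and 540 higher in late animals (3.6%), against 750 expected from a uniform p. With the threshold at an adjusted p of 0.1, 49 genes were lower (0.327%) and 8 higher (0.0534%). BDL against SHAM in the same model gave 0 called genes and 828 at an unadjusted p under 0.05 (5.52%). DESeq2 called 100 genes for late against early (77 lower, 23 higher), limma-voom called 1, and for BDL against SHAM they called 1 and 0. The count for late against early moved with single animals. It was 0 without animal 400, 402, 404, 411 or 415, 2 without 417, 3 without 413, 5 without 403, 7 without 421, 17 without 416, 26 without 420, 27 without 410 and 46 without 401. It was 1 without any other animal, 0 in males alone and 3 in females alone.

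**Figure D1:**
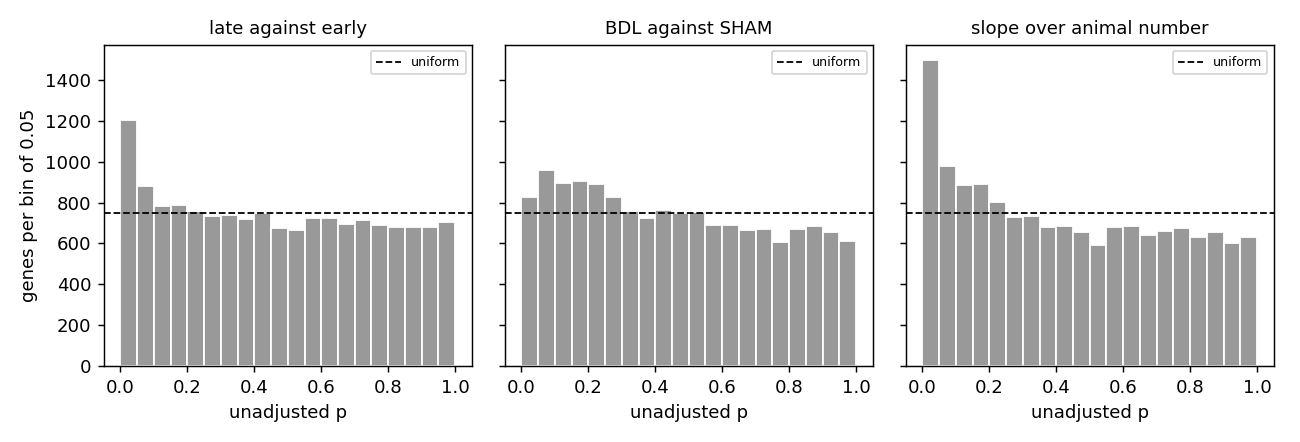
Number of genes (y axis) in each bin of 0.05 of the unadjusted p (x axis) for late against early, BDL against SHAM and the slope over animal number, with a dashed line at the height of a uniform distribution. The first bin holds 1205, 828 and 1497 genes.

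Type I collagen carried the called difference. COL1A1, the alpha 1 chain of type I collagen (Sscrofa11.1 chromosome 12, 26379087 to 26397180), had 101 CPM in the lowest, 172 in the median and 206 in the highest early library, and 68.2, 88.3 and 144 CPM in late libraries. In 8 of 11 early libraries it was above every late library, 7 of 11 late libraries were below every early one, and all 11 late libraries were below the early mean. The early library with the least, 101 CPM, was animal 401, a SHAM male. COL1A1 fell by 0.87 on the log2 scale (SE 0.13, adjusted p = 0.0191), from 165 ± 33.2 to 95.1 ± 24.0 CPM (SD, n = 11 each). The call was lost without animal 400, 402, 404, 411 or 415 and held without each of the other 17, with a log2 change from -0.93 to -0.83 in all 22 fits. It was also lost without a count filter and in females or males alone, where the changes were -0.91 and -0.96.

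The next genes on the lower side were also of the extracellular matrix, and none passed the adjusted threshold. COL1A2, the partner chain of COL1A1, had 75.2, 153 and 181 CPM (lowest, median, highest) in early and 57.9, 79.4 and 126 CPM in late libraries, a log2 difference of -0.79 ± 0.14 (SE, adjusted p = 0.0533). COL3A1, type III collagen, had 49.7, 90.3 and 135 CPM against 30.4, 47.8 and 74.0 CPM (-0.89 ± 0.16, adjusted p = 0.0533). For both genes, 8 of 11 early libraries were above the highest late library, the highest value was that of animal 402 for COL1A2 and of animal 400 for COL3A1, and animal 401 was the lowest of the early group. NID1, or nidogen, which links laminin to type IV collagen in basement membranes, overlapped least. It had 26.4, 30.3 and 36.2 CPM in early and 17.4, 23.9 and 27.6 CPM in late libraries, with 10 of 11 early libraries above every late one (-0.39 ± 0.07, adjusted p = 0.0533). COL11A1, a minor fibrillar collagen, differed by -0.46 ± 0.09 (adjusted p = 0.0533). FN1, fibronectin, differed by -0.73 ± 0.15 (adjusted p = 0.0606). COL1A1, COL1A2, COL3A1 and FBLN1, a matrix glycoprotein, were the 4 genes called when animals 400, 401 and 402 were left out together.

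**Figure D2:**
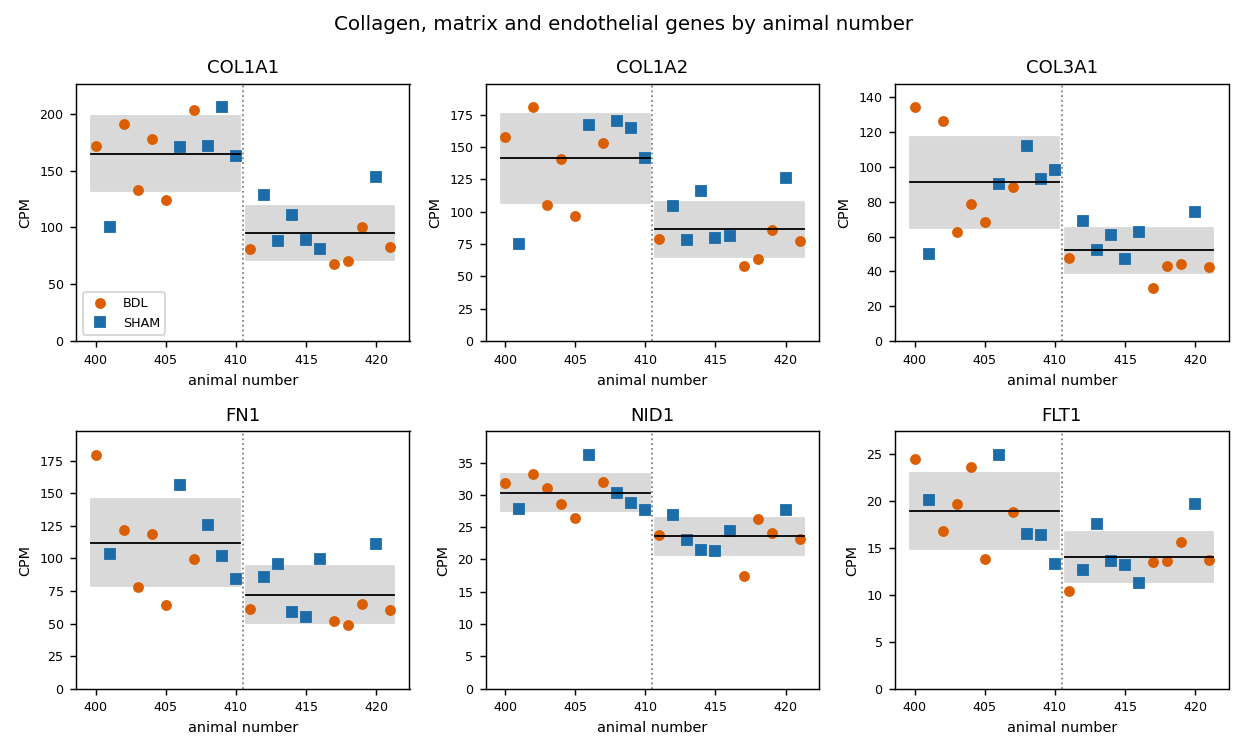
CPM (y axis, from 0) against animal number (x axis) for 6 genes, with BDL animals as circles and SHAM animals as squares, the mean of early and of late libraries as lines and 1 SD as grey bands. In NID1 10 of 11 early libraries lie above the highest late library, and the low early point in COL1A1, COL1A2 and COL3A1 is animal 401.

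As a group, most matrix genes were lower in late animals, and the meningeal list lay wholly to 1 side. Of 25 tested markers of meninges and fibroblasts, 25 were lower in late animals (median log2 difference -0.60; 21 at an unadjusted p under 0.05, 1 called), beside a median of 0.0017 and 49.2% lower over all genes tested. Of 34 collagen genes, 22 were lower (median -0.33; 17 lower and 1 higher at an unadjusted p under 0.05), and of 45 basement membrane and matrix glycoprotein genes, 32 were lower (median -0.20; 22 and 0). These last 2 lists were drawn up after values of this comparison had been seen. In them 12 collagen genes and 13 matrix glycoprotein genes were higher in late animals. COL1A1, COL1A2 and COL3A1 are counted in both the meningeal and the collagen list. Members of the meningeal list include DCN, the proteoglycan decorin, at 9.06, 20.5 and 28.0 CPM in early and 8.19, 12.7 and 19.9 CPM in late libraries (-0.65 ± 0.16, adjusted p = 0.116), and ALDH1A2, a retinoic acid synthesis enzyme, at -0.75 ± 0.16 (adjusted p = 0.0606). In whole tissue, fewer cells of a type and less RNA per cell cannot be told apart. Without animals 400, 401 and 402, 25 of 25 meningeal markers were again lower (median -0.47, 18 at an unadjusted p under 0.05, beside 4.36% of all genes). The mean log2 CPM of the list ran from 3.35 to 4.39 in early libraries (median 4.06) and from 3.13 to 3.87 in late ones (median 3.46), with animal 401 lowest and animal 402 highest in the early group.

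Most vessel genes were also lower in late animals, with medians nearer 0 than that of the meningeal list. Of 14 endothelial and barrier genes, 14 were lower (median -0.14, 6 at an unadjusted p under 0.05), and of 15 pericyte and smooth muscle genes, 13 were lower (median -0.32, 7). No member of these lists was called. FLT1, a receptor for vascular endothelial growth factor, had 13.3, 18.8 and 24.9 CPM in early and 10.4, 13.6 and 19.6 CPM in late libraries (-0.50 ± 0.10, adjusted p = 0.0577). CDH5, the adhesion protein of endothelial junctions, differed by -0.56 ± 0.12 (adjusted p = 0.0606), and in females alone it was called (-0.92, adjusted p = 0.0289) while in males the difference was -0.27. CLDN5, a tight junction protein of the blood-brain barrier, had medians of 75.1 and 78.5 CPM and a difference of -0.09 ± 0.09. MYL9, a smooth muscle myosin light chain, had 2.67, 6.67 and 10.17 CPM in early and 2.47, 4.05 and 5.97 CPM in late libraries (-0.71 ± 0.18, adjusted p = 0.133). For CDH5 and MYL9, 7 of 11 early libraries were above every late library.

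Most matrix genes were on the lower side in late animals within each treatment, with larger values among BDL animals. COL1A1 itself was called in neither treatment alone. COL1A1 averaged 167 ± 31.8 CPM in early and 80.7 ± 12.9 in late BDL animals (SD, n = 6 and 5). In SHAM animals it averaged 163 ± 38.4 and 107 ± 25.5 CPM (n = 5 and 6). The log2 differences were -1.04 ± 0.18 in BDL and -0.68 ± 0.19 in SHAM, and the difference between them, -0.36 ± 0.26, had an unadjusted p of 0.18. Within BDL, 1 of 14994 genes was called (0.00667%). It was COL6A1, a type VI collagen chain, with a log2 difference of -0.91 ± 0.14 (adjusted p = 0.0295), beside -0.21 ± 0.15 in SHAM. The test of that difference between treatments gave -0.69 ± 0.21 with an unadjusted p of 0.00293, and no gene passed correction for such a difference. COL6A1 is named outside the rule for named genes, after its value was seen. No gene was called within BDL without animal 402, 404, 407, 411 or 418. The count within BDL was 13 without animal 401, 4 without 403, 405 or 416, 3 without 413, 2 without 409 or 420 and 1 without any other. Without animal 417 that 1 gene was TGM2, a transglutaminase, so COL6A1 lost its call without 402, 404, 407, 411, 417 or 418. Of the 25 meningeal markers, 25 were lower in late BDL animals (median -0.86; 20 at an unadjusted p under 0.05, beside 3.27% of all genes) and 23 in late SHAM animals (median -0.32; 6, beside 2.81%). Within SHAM no gene was called by edgeR (712 at an unadjusted p under 0.05), 2 by DESeq2 and 0 by limma-voom.

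Clock genes differed between early and late animals in opposite directions by role. BMAL1 and NFIL3 were on the higher side in late animals, and CIART, NR1D1, NR1D2, PER2 and DBP on the lower side. No clock gene was called for late against early. Of 10 repressors tested, 9 were lower in late animals (median -0.25; 6 at an unadjusted p under 0.05), and of 6 output factors, 5 were lower (median -0.15; 3 lower and 1 higher). The 6 activators split 3 to 3 (median -0.01).

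BMAL1, the activator that pairs with CLOCK (chromosome 2, 45895637 to 46025174), had 29.6, 39.7 and 46.8 CPM in early and 41.3, 49.8 and 54.5 CPM in late libraries (0.33 ± 0.07, adjusted p = 0.0589). The groups overlapped little: 9 of 11 early libraries were below every late one, and 9 of 11 late libraries above every early one. CIART, which represses the BMAL1 and CLOCK pair (chromosome 4, 98800849 to 98809573), had 10.1, 12.6 and 24.5 CPM against 6.99, 8.50 and 11.4 CPM (-0.76 ± 0.15, adjusted p = 0.0606), and all 11 late libraries were below the early mean. NR1D1, or REV-ERB alpha, which represses BMAL1, had 21.5, 47.5 and 74.2 CPM against 21.04, 26.7 and 41.5 CPM (-0.67 ± 0.17, adjusted p = 0.146). NR1D2, its close relative, differed by -0.25 ± 0.07 (adjusted p = 0.149). PER2, a core repressor, had 56.1, 68.9 and 126 CPM against 46.1, 59.6 and 71.2 CPM (-0.47 ± 0.14, adjusted p = 0.281).

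The highest early values of several repressors were those of animals 400, 401 and 402, which are 2 BDL females and a SHAM male. CIART was at 22.4, 24.5 and 20.6 CPM in these 3 animals and between 10.1 and 15.9 CPM in the other 8 early animals. PER2 was at 126, 118 and 105 CPM in them and between 56.1 and 94.9 CPM in the other 8. PER1, the light- and hormone-responsive PER gene, was at 221, 185 and 202 CPM in them and between 95.4 and 173 CPM in the others. Without the 3 animals the late against early difference was -0.46 for CIART (adjusted p = 0.0948), -0.21 for PER2 and -0.04 for PER1. BMAL1 was then at 0.28 (adjusted p = 0.0751), NR1D1 at -0.46 and NFIL3 at 0.42. Of the 10 repressors, 9 were lower without them too (median -0.17, 5 at an unadjusted p under 0.05).

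Among the other repressors, BHLHE41 differed by -0.20 ± 0.07 and TIMELESS by -0.41 ± 0.16, both with an unadjusted p under 0.05. CRY1 was the 1 repressor on the higher side (0.12 ± 0.06, unadjusted p = 0.0557), and CRY2, PER1 and BHLHE40 were at -0.13, -0.25 and -0.12. In males alone PER1 and CRY2 were on the higher side and CLOCK on the lower. Of the output factors that act on the same promoter element, NFIL3, which represses it, had 20.7, 25.7 and 33.7 CPM in early and 26.8, 36.1 and 50.2 CPM in late libraries (0.45 ± 0.10, adjusted p = 0.0678). DBP, which activates it, had 93.5, 122 and 179 CPM against 88.2, 99.3 and 123 CPM (-0.36 ± 0.08, adjusted p = 0.0791). All 11 late libraries were above the early mean for NFIL3 and below it for DBP. TEF and HLF, relatives of DBP, differed by -0.24 and -0.09. The 6 kinases and ligases that control clock protein stability had differences between -0.03 and 0.06, and none had an unadjusted p under 0.05.

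**Figure D3:**
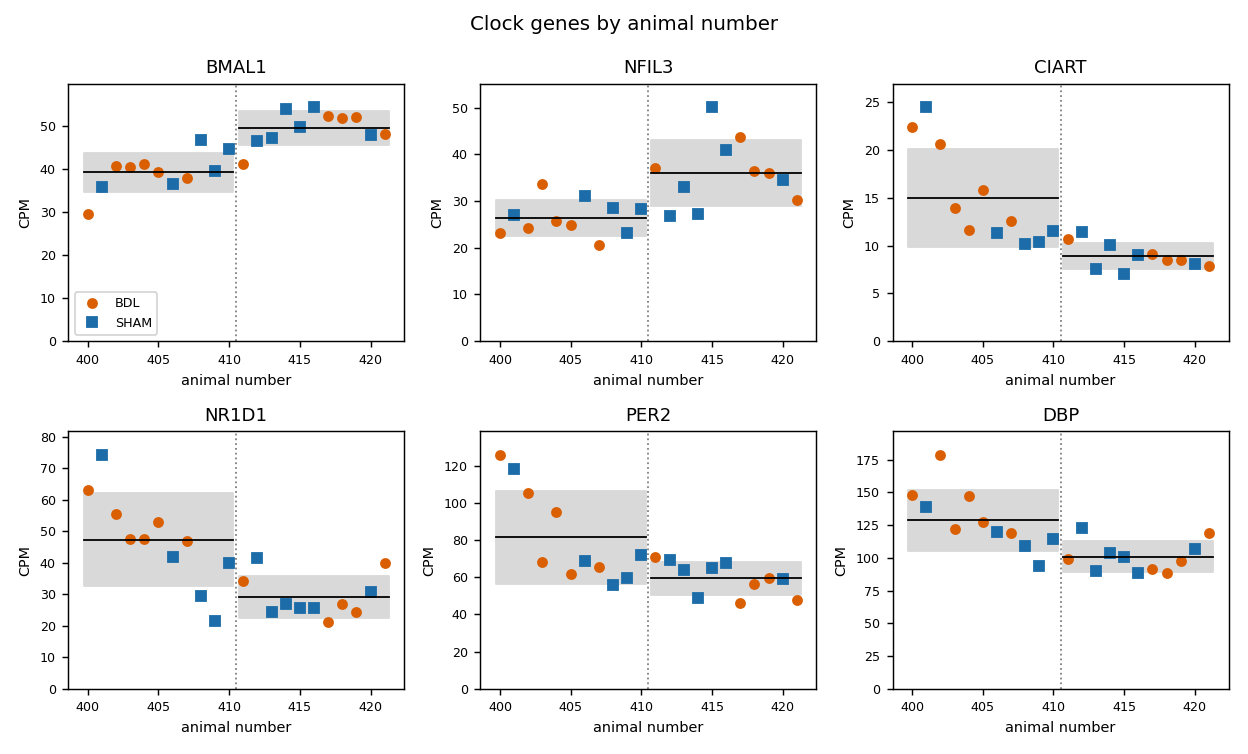
CPM (y axis, from 0) against animal number (x axis) for 6 clock genes, drawn as in the plot of matrix genes. BMAL1 and NFIL3 are higher in late libraries and the other 4 lower, and the highest CIART and PER2 points are animals 400, 401 and 402.

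Taken as a number in place of 2 groups, the animal number called more genes, and clock genes led them. With treatment and sex in the model, 11 genes had a slope over animal number at an adjusted p under 0.05 (0.0734% of 14994), 8 negative and 3 positive, and 1497 had an unadjusted p under 0.05 (9.98%). CIART fell by 0.68 per 10 numbers on the log2 scale (SE 0.08, adjusted p = 0.000243), PER2 by 0.47 (adjusted p = 0.0194), NR1D1 by 0.58 (adjusted p = 0.037) and NR1D2 by 0.23 (adjusted p = 0.0194). BMAL1 rose by 0.29 per 10 numbers (SE 0.04, adjusted p = 0.00708). The other called genes with a symbol were ENAH, an actin regulator, at -0.27, LIN7B, a synaptic scaffold protein, at 0.30, and PRKAR1B, a regulatory subunit of protein kinase A, at 0.21. The other 3 have no symbol in the tables used. Of the 10 repressors, 8 had a negative slope at an unadjusted p under 0.05 (4.93% of all genes) and 1 a positive one (5.06%). COL1A1 had a slope of -0.53 ± 0.14 (adjusted p = 0.228).

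The slope calls moved with single animals at both ends of the numbers. Without animals 400, 401 and 402 together, no gene was called (1248 at an unadjusted p under 0.05, edgeR). The slope was then -0.45 for CIART (adjusted p = 0.109), 0.25 for BMAL1 (adjusted p = 0.251), -0.21 for NR1D2 and -0.26 for PER2. Without animal 400 alone, only CIART was called. The count was 3 without animal 417, 6 without 419, 7 without 407 or 414, 24 without 402 and 8 to 16 without any other animal. CIART was among the called genes in all 22 of these fits, and BMAL1 in all but that without animal 400. PER2 lost its call without 400, 401, 417 or 421, NR1D2 without 400, 401, 417 or 419, and ENAH without 400, 417, 418 or 421. NR1D1, LIN7B and PRKAR1B lost theirs without 400 or 417 and without several others. Over all 30 alternatives run, the loss was in 12 for NR1D1, 13 for LIN7B and 14 for PRKAR1B. DESeq2 called 55 genes and limma-voom 12.

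Cell division genes were lower in late animals as a list. Of 16 cell cycle genes, 16 were lower (median -0.32, 10 at an unadjusted p under 0.05), and of 23 replication and progenitor genes, a list drawn up after values had been seen, 20 were lower (median -0.16, 11). None was called. UHRF1, which copies DNA methylation to new strands, had 11.8, 15.4 and 19.2 CPM in early and 8.67, 11.7 and 13.8 CPM in late libraries (-0.47 ± 0.10, adjusted p = 0.0606). In 8 of 11 early libraries UHRF1 was above every late library. MCM3, a subunit of the replicative helicase, differed by -0.31 ± 0.08 (adjusted p = 0.149), and POLE, the leading-strand polymerase, by -0.51 ± 0.13 (adjusted p = 0.111). ATOH1, the factor that marks dividing granule cell precursors, had 2.98, 4.62 and 7.72 CPM against 2.29, 3.11 and 4.51 CPM (-0.55 ± 0.17, adjusted p = 0.282). GLI2, a Hedgehog pathway factor of the same cells, differed by -0.49 ± 0.17, while GLI1 was at 0.22 ± 0.11. Of 17 precursor genes, 13 were lower (median -0.10, 2 at an unadjusted p under 0.05).

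The values of the cell cycle list by treatment and by sex are set beside those of the meningeal list. Its median was -0.18 within BDL and -0.36 within SHAM, where the meningeal list had -0.86 and -0.32. In males alone it was -0.44 (16 of 16 lower, 9 at an unadjusted p under 0.05) and in females alone -0.10 (15 of 16 lower, 0), where the meningeal list had -0.40 and -0.76. Over all genes, 3.88% were lower at that level in males and 3.35% in females. Sex and treatment were unevenly mixed: the early group held 4 BDL and 1 SHAM females, and 2 BDL and 4 SHAM males. The splits by sex and by treatment are therefore not separate observations, and their parts in these values cannot be told apart. Neither the sex difference nor the treatment difference of these list values was tested, and no single gene was called for a difference between treatments. Without animals 400, 401 and 402 the cell cycle median was -0.32.

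Granule neuron genes were mostly on the higher side in late animals and synaptic genes less so, with small differences and none called. Of 17 granule neuron genes, 14 were higher (median 0.10; 6 higher at an unadjusted p under 0.05), and of 25 synaptic genes, 18 were higher (median 0.04, 5). Over all genes tested, 50.8% were higher and 3.6% were higher at that level. GRIN2C and GABRA6 are counted in both lists, also at that level. GRIN2C, the NMDA receptor subunit of mature granule neurons, had 125, 168 and 223 CPM in early and 186, 203 and 242 CPM in late libraries (0.26 ± 0.08, adjusted p = 0.265), and 8 of 11 early libraries were below every late one. SLC17A7, the vesicular glutamate transporter of granule neurons, had 475, 573 and 713 CPM against 599, 687 and 744 CPM (0.19 ± 0.06, adjusted p = 0.266). SYN2, a synaptic vesicle protein, differed by 0.17 ± 0.05 (adjusted p = 0.199). Of 21 nuclear genes of the respiratory chain, 21 were higher (median 0.07, 3 at an unadjusted p under 0.05), with UQCRC1, a complex III core protein, at 0.14 ± 0.06. Without animals 400, 401 and 402, 18 of these 21 were higher with a median of 0.03. Of 20 cytosolic ribosomal protein genes, 14 were lower (median -0.03, 0 at an unadjusted p under 0.05), and interneuron genes split 9 to 9. Of 12 mitochondrially encoded genes, 8 were lower (median -0.04, 0). Purkinje cell genes split 12 higher to 8 lower (median 0.03).

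Other genes led the higher side without belonging to these groups, and 1 of them, MEGF11, is in the list of oligodendrocyte precursors. CADPS2, a protein of vesicle release found in granule neurons, had 334, 367 and 431 CPM in early and 379, 448 and 488 CPM in late libraries (0.22 ± 0.05, adjusted p = 0.0606). PRKAR1B had 92.3, 110 and 126 CPM against 115, 131 and 146 CPM (0.26 ± 0.05, adjusted p = 0.0606). MEGF11 had 74.3, 90.0 and 112 CPM against 92.3, 117 and 132 CPM (0.32 ± 0.06, adjusted p = 0.0606), and LRRC3B differed by 0.47 ± 0.11 (adjusted p = 0.0678). For all 4 genes every late library was above the early mean, and 7 to 9 of the 11 late libraries were above the highest early library.

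**Figure D4:**
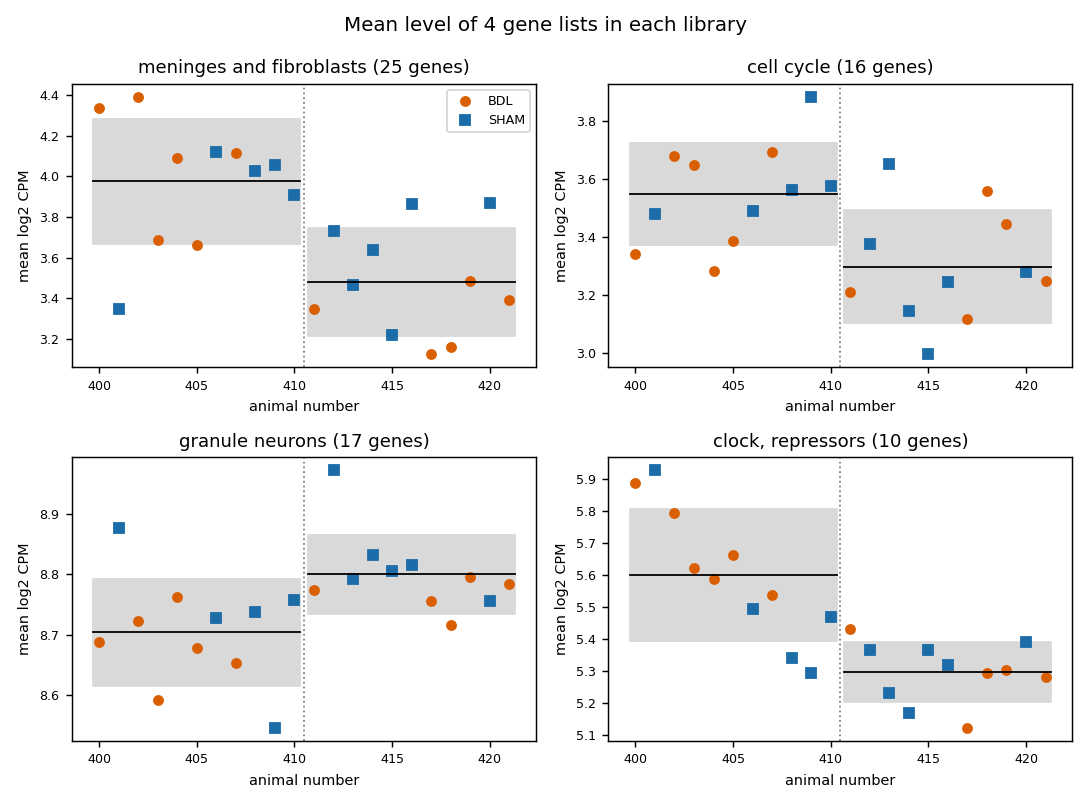
Mean log2 CPM of the tested members (y axis) of 4 gene lists against animal number (x axis), drawn as in the plot of matrix genes. The y axes do not start at 0. Animal 401 is low in the meningeal list, and animals 400 to 402 are the highest 3 in the clock repressor list.

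Stress programs gave no called gene and small medians. Of 16 genes that respond to glucocorticoids, 11 were lower in late animals (median -0.07; 5 lower and 1 higher at an unadjusted p under 0.05). FKBP5, a chaperone partner of the glucocorticoid receptor and a usual readout of that hormone, had 18.3, 22.1 and 27.6 CPM in early and 15.1, 18.9 and 20.9 CPM in late libraries (-0.28 ± 0.08, adjusted p = 0.178). In 8 of 11 early libraries FKBP5 was above every late library. ZBTB16, another target, differed by -0.66 ± 0.23 (adjusted p = 0.395), and PDK4, a kinase that spares glucose and also follows fasting, by -0.32 ± 0.12 (adjusted p = 0.417). Immediate early genes, the first transcripts to respond to a stimulus, had 17 of 26 members higher (median 0.05), none of these at an unadjusted p under 0.05. The 5 lower ones at that level were KLF10, KLF6, CCN2, KLF2 and KLF4, and FOS was at 0.60 ± 0.45. KLF2, KLF4, KLF6 and KLF10 are zinc finger factors, and CCN2 is a secreted matrix-associated protein.

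Heat shock genes split 7 higher to 10 lower (median -0.03, 1 lower at an unadjusted p under 0.05). That member was SERPINH1, the chaperone dedicated to collagen, with 70.0, 87.1 and 100.4 CPM in early and 62.8, 69.9 and 93.5 CPM in late libraries (-0.26 ± 0.07, adjusted p = 0.126). Genes of the unfolded protein and integrated stress responses had a median of -0.04 (13 of 17 lower, 1 at an unadjusted p under 0.05), hypoxia and glycolysis genes -0.01 (8 of 16 lower, 2) and oxidative stress genes -0.07 (9 of 14 lower, 1). The 3 cold-inducible genes tested had differences between -0.02 and 0.01. Fasting and feeding genes had 8 of 13 lower (median -0.05, 3 at an unadjusted p under 0.05). Over all genes, 4.44% were lower at this level. The glucocorticoid list held 31.3%, fasting and feeding 23.1%, immediate early genes 19.2%, hypoxia and glycolysis 12.5%, oxidative stress 7.14%, and the heat shock and unfolded protein lists 5.88% each. The genes ANGPTL4 and PDK4 are counted in both the glucocorticoid and the fasting and feeding shares, so these shares are not separate.

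Tissue that a dissection could add or leave out was read from 5 further lists. Choroid plexus genes had 11 of 15 lower (median -0.16; 1 lower and 1 higher at an unadjusted p under 0.05), and the spread within each group was wide. KRT8, an epithelial keratin, had 1.67, 8.13 and 19.3 CPM in early and 0.499, 2.68 and 14.5 CPM in late libraries (-1.20 ± 0.54, adjusted p = 0.566). KRT18, its usual partner, was at 0.69 ± 0.26 in the other direction. Within BDL the choroid median was -0.49 (11 of 15 lower, 6 at an unadjusted p under 0.05, beside 3.27% of all genes). Within SHAM it was 0.04 (5 of 15 lower, 0 at that level). Ependymal genes had 5 of 6 lower (median -0.15, 0 at an unadjusted p under 0.05).

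Of 26 brainstem and deep nuclei genes with a symbol in the tables, only 4 passed the filter on low counts, and their differences lay between -0.09 and 0.02. Of 17 blood genes, 6 passed, 5 of them lower (median -0.45), and none was called. HBB had 0.666, 2.57 and 11.13 CPM in early and 0.970, 2.79 and 8.56 CPM in late libraries. Skeletal muscle genes had 4 of 5 higher (median 0.16, 0). Beside these 5 lists, the meningeal one had 21 of 25 members at an unadjusted p under 0.05 in the model of both treatments. The part of meninges retained at dissection in any of the results was not tested.

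Myelin, astrocyte and oligodendrocyte precursor lists had medians between 0.0034 and 0.06 in the model of both treatments, while microglial and reactive glia lists were mostly lower in late animals. Myelin genes had 14 of 22 higher and a median of 0.06, with 22 of 22 lower within BDL (median -0.25) and 20 of 22 higher within SHAM (median 0.41), and no member at an unadjusted p under 0.05 in the main comparison. Cholesterol synthesis genes had medians of 0.0003 in the model of both treatments, -0.15 within BDL and 0.18 within SHAM. In neither list was a member lower at an unadjusted p under 0.05 within BDL or SHAM. Within SHAM 20 of 22 members of each list were higher, and how many of them passed that level was not counted. The difference between treatments was not tested for the lists. MBP, myelin basic protein, ran from 2600 to 16040 CPM in early and from 5887 to 14260 CPM in late libraries. Astrocyte and Bergmann glia genes had 8 of 15 higher (median 0.0034), and precursors of oligodendrocytes 8 of 14 (median 0.02). In the precursor list 1 member, MEGF11, was higher at an unadjusted p under 0.05. Microglial and macrophage genes had 17 of 21 lower (median -0.10; 2 lower and 1 higher at an unadjusted p under 0.05). The higher one was IRF8, a myeloid transcription factor, at 50.7, 65.9 and 80.4 CPM in early and 64.3, 78.3 and 99.0 CPM in late libraries (0.35 ± 0.09, adjusted p = 0.11). Acute phase and reactive glia genes had 11 of 13 lower (median -0.06, 2 at an unadjusted p under 0.05). These were VIM, the intermediate filament vimentin, at -0.41 ± 0.13 (adjusted p = 0.3), and EMP1, a membrane protein, at -0.69 ± 0.19 (adjusted p = 0.178). CD163, a scavenger receptor of macrophages outside the brain tissue proper, was at -0.75 ± 0.26.

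Interferon response genes had 25 of 34 lower in late animals (median -0.13; 0 lower and 1 higher at an unadjusted p under 0.05). In BDL against SHAM animals 34 of 34 were higher (median 0.30), 3 of them at that level and none called. Over all genes, 49.7% were higher in BDL animals, and 5.52% passed that level in either direction. The mean log2 CPM of the list ran from 2.85 to 4.50 in early and from 2.61 to 4.71 in late libraries. The levels varied widely within each group. IFI6, an interferon-induced protein, ran from 58.4 to 456 CPM in early and from 40.7 to 425 CPM in late libraries.

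**Figure D5:**
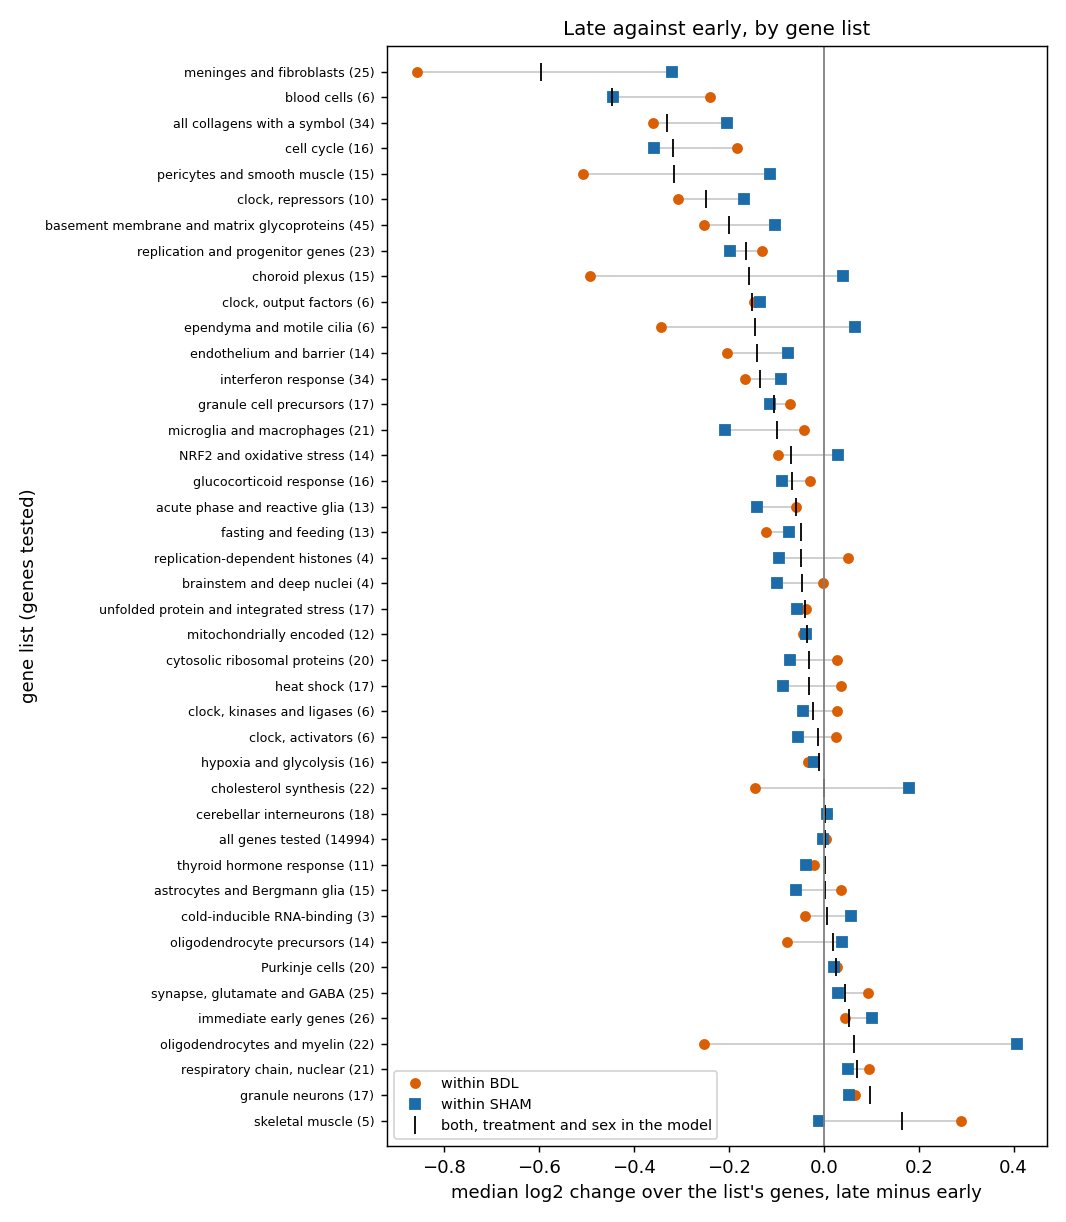
Median log2 change, late minus early (x axis), over the tested members of each gene list (y axis, with the number of genes), within BDL (circles), within SHAM (squares) and in the model of both (vertical marks). The meningeal list is at -0.86 and -0.32, all genes are at about 0, and myelin genes are on opposite sides in BDL and SHAM.

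The leading genes of the animal number comparison were also read for surgery, and none was called there. In the same model COL1A1 differed by -0.21 ± 0.13 between BDL and SHAM (unadjusted p = 0.11), BMAL1 by -0.05 ± 0.07 (p = 0.417), CIART by 0.12 ± 0.15 (p = 0.462) and NID1 by -0.04 ± 0.07 (p = 0.523). FN1, CADPS2, PRKAR1B, ENAH and LIN7B had an unadjusted p under 0.05 for surgery as well, with -0.36, -0.12, 0.12, -0.17 and 0.19. PER1 and CRY2 had higher values in BDL than in SHAM animals (0.30 ± 0.13 and 0.20 ± 0.09, unadjusted p = 0.0401 and 0.0416), and neither was called. Their values for late against early were -0.25 and -0.13. They also had slopes over animal number of -0.26 and -0.14 per 10 numbers (unadjusted p = 0.00923 and 0.0414 in the slope model). For the 25 meningeal markers the BDL against SHAM median was -0.11, with 21 lower and 2 at an unadjusted p under 0.05. For the 10 clock repressors it was 0.05, with 7 higher and 2 at that level. Over all genes, 5.52% were at that level for surgery.

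Adding the animal number left the surgery comparison without a called gene in edgeR, while the count at an unadjusted p under 0.05 rose. With the early or late term, 0 genes were called for BDL against SHAM and 828 had an unadjusted p under 0.05. Without the term the counts were 0 and 744, and with the number itself in its place 0 and 915. TPD52L1, the gene with the smallest p for surgery, differed by 0.67 ± 0.14 between BDL and SHAM and by 0.12 ± 0.14 between late and early. It was the 1 gene DESeq2 called for surgery. TBC1D32 and MYOM1, with the smallest p on the lower side, were at -0.30 and -0.40 for surgery and at -0.10 and 0.09 for late against early.

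Whether surgery acted differently in early and late animals was tested as an interaction. No gene was called by edgeR, DESeq2 or limma-voom, and 446 had an unadjusted p under 0.05 (2.97%), fewer than the 750 of a uniform distribution. The smallest p values with a symbol were those of AIFM2, a guard against lipid peroxidation, and FAAH, which breaks down the endocannabinoid anandamide. AIFM2 differed between late and early by 0.26 ± 0.09 in BDL and by -0.36 ± 0.09 in SHAM (interaction 0.62 ± 0.13). FAAH differed by -0.15 ± 0.10 in BDL and by 0.53 ± 0.11 in SHAM (interaction -0.67 ± 0.15). The adjusted p of both was 1.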

How the data were processed

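The authors deposited gene counts for each library, in read pairs per Ensembl gene with no normalization. Per the submitters' processing notes, reads were handled with Trim Galore, HISAT2, HTSeq and DESeq2 on the pig build Sscrofa11.1; their versions and order and the strand setting are not stated there. Per the labels' protocols, RNA was extracted with an RNeasy Lipid kit and sequenced in pairs. Without a stated strand setting, overlapping and antisense genes cannot be told apart.

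The 5 lines of no gene held 29.9% to 34.6% of each library and were left out. Symbols came from the reference tables, which matched 15029 of 31907 IDs, and positions from RefSeq's Sscrofa11.1 table; some list genes were not matched and are not reported. Genes with enough counts by edgeR's filter (minimum 10, total 15; R 4.3.3, edgeR 4.0.16) entered a quasi-likelihood fit with TMM scaling, which the CPM values also carry. Its terms were sex, treatment and early or late. A 4-group version gave the comparisons within each treatment and the interaction, and another took the animal number as a slope. Called means a Benjamini-Hochberg adjusted p under 0.05 over all 14994 genes; log2 changes are late minus early with their SE. DESeq2 1.42.0, limma-voom 3.58.1, other scalings, filters and covariates, each sex alone and leaving out animals were the alternatives. Procedures were tested on simulated data.

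Named genes were the 5 smallest p on each side, every clock gene, up to 4 of each other list with the smallest p, and a short set of markers. CLDN5, COL6A1, DCN, ENAH, FOS, GLI1, LIN7B, NEUROD1 and TGM2 were added after their values were seen. The comparison, the 38 gene lists and the rules were chosen with earlier results of these data known, and 3 further lists after the values of this comparison. Each library is 1 animal; litters are not labelled, so p-values measure the spread between these animals only. No pair of libraries agreed within counting noise (chi-square per degree of freedom 6.82 to 48.1 over 231 pairs).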

Additional observations from a re-analysis of the deposited data

Results flagged for a closer look

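For 14 leading genes, each of the 4 sets of animals (early or late, BDL or SHAM) was searched for a single animal far from the rest on the log2 CPM scale. The measure was the gap to the nearest other animal as a share of the whole range of the set. It passed Dixon's limit in 7 of 56 sets, and chance alone passes it in about 1 in 20.

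Among early SHAM animals, animal 401 was the lowest for COL1A2 (ratio 0.773) and COL3A1 (0.733) and the highest for CIART (0.853), while animal 406 was the highest for COL11A1 (0.783). Among early BDL animals, animal 400 was the lowest for BMAL1 (0.742) and animal 402 for MEGF11 (0.707). Among late BDL animals, animal 417 was the lowest for COL3A1 (0.752). What set these animals apart was not tested.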

How the results depend on the processing

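No paired analysis was possible because the replicate numbers only follow the animal numbers within each group and tie no early animal to a late one. For late against early, 1 gene was called; DESeq2 called 100, no count filter left 0, females alone gave 3, males alone 0, leaving out animals 400, 401 and 402 together gave 4, and leaving out each animal gave 0 to 46. Within BDL, 1 gene was called; DESeq2 called 54, adding body weight gave 7, and leaving out each animal gave 0 to 13. Within SHAM, where 0 were called, DESeq2 called 2, and for BDL against SHAM, also with 0, it called 1. For the slope over animal number, 11 genes were called; DESeq2 called 55, leaving out animals 400, 401 and 402 together, chosen after seeing the data, gave 0, and leaving out each animal gave 1 to 24. The cause of these moves was not tested. Among single clock genes, the direction changed only in males alone, for PER1 (0.0452), CRY2 (0.0758) and CLOCK (-0.0469). The interaction gave 0 called genes under every alternative run. Genes of few counts, such as KRT18 and CD163, carry wide errors at this depth.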
